A study of Mus musculus with 2 samples.

Results

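The BCL2 family genes Bcl2, Bcl2l1, Mcl1, Bax, Bak1, Bbc3, Bcl2l11, Bad and Bid were followed in mouse tumour endothelial cells, as 9 named genes of the 19831 in each of 2 expression tables. All 9 were present in both tables. They form a list by name of 3 anti-apoptotic and 6 pro-apoptotic members, without regard to a threshold on any value. The cells came from tumours of adult C57BL/6 mice and were sorted for CD31, a surface protein of endothelium. There was 1 control library and 1 library labelled NF2 KO, named here the knockout library. Nf2 encodes merlin, a tumour suppressor at the cell membrane and a known activator of Hippo signalling. The tumour type, the driver of the deletion, its exons and the number of mice behind a library are not given in the sources used here. With 1 library a group there is no replicate check and no test: genotype, mouse, sort and library cannot be told apart, and every interval below covers counting error only.

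BCL2 family proteins decide whether the outer mitochondrial membrane stays closed. BCL2, BCL-XL (the main product of Bcl2l1) and MCL1 hold the effectors BAX and BAK in check. BH3-only proteins such as PUMA (Bbc3), BIM (Bcl2l11), BAD and BID bind the survival proteins or activate the effectors, and open effectors release cytochrome c, which starts the caspase cascade. In endothelium these genes are known for their part in vessel survival and regression. Transcript levels do not report protein levels, phosphorylation of BAD, cleavage of BID or the splicing of Bcl2l1, none of which was measured.

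The tables held 2826 control cells with 34649992 transcripts counted by molecular identifier (UMIs) and 3368 knockout cells with 58907098 UMIs. Cell barcodes carried a run number, 1 or 2, in each library. The labels do not say what a run is, so runs are given as separate values and not as replicates. No pair of runs shared more than 1 barcode. After filtering, 1628 control cells and 2753 knockout cells were retained as endothelial, with median depths of 15734.5 and 17171 UMIs. All 19 endothelial markers were detected in each library, at a summed level of 11098 UMIs per 1000000 of the library (CPM) in the control and 8726 in the knockout. Markers of T or NK cells summed to 1.90 and 1.39 CPM, those of B cells to 0.645 and 0.885, those of macrophages to 84.6 and 114, those of neutrophils to 89.2 and 68.7, and those of erythroid cells to 47.4 and 22.6. Control run 1 had the most neutrophil (122) and erythroid (76.5) marker CPM of the 4 runs, and their part in the results was not tested. Of retained control run 1 cells, 34.5% had under 5000 UMIs, against 3.26% to 5.35% in the other runs. Nf2 itself stood at 21.8 CPM in the control and 20.3 in the knockout (ratio 0.932, interval 0.844 to 1.03). The libraries read transcript 3′ ends and the deleted exons are not given, so this value does not check the labels.

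In these cells the 3 survival genes differed in opposite ways between the libraries: Bcl2 was lower in the knockout, Bcl2l1 was higher, and Mcl1, by far the most counted of them, differed little. A gene is called higher or lower here where its CPM ratio reached 1.5 in either direction, the 95% counting interval excluded 1 and the mean level was at least 20 CPM. Of the 9 members 7 reached that level and 2 were called, Bcl2l1 higher and Bcl2 lower. With the same cluster weights in both libraries neither call held: Bcl2 was at 0.588 with its mean level under 20 CPM, and Bcl2l1 at 1.48. Over all genes with that level, 469 of 5835 were called, or 8.04% (2.78% higher and 5.26% lower), and their median log2 ratio was -0.03. All CPM values are levels of tags and are not scaled to transcript length. A summed level does not tell fewer expressing cells from fewer transcripts per cell.

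The stretches before the 3 survival genes are shown as a description. Whether their letters go with the differences between the libraries was not tested. Each is the 250 bases before the annotated start on the gene's own strand, from RefSeq (GRCm38.p6). Capitals mark the letters GGAATG or, on the other strand, CATTCC, the core recognised by TEAD factors, the DNA-binding partners of the Hippo effector YAP. For Bcl2l1 the most 5′ of 3 listed starts is shown. The windows lie at chr1:106714291-106714540 on the minus strand for Bcl2, chr2:152831729-152831978 on the minus strand for Bcl2l1 and chr3:95658471-95658720 on the plus strand for Mcl1.
Bcl2: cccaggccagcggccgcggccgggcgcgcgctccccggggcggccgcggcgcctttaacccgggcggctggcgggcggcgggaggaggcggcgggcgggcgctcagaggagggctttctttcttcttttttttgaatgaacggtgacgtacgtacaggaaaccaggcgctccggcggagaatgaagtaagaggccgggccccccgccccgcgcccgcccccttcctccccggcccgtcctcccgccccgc
Bcl2l1: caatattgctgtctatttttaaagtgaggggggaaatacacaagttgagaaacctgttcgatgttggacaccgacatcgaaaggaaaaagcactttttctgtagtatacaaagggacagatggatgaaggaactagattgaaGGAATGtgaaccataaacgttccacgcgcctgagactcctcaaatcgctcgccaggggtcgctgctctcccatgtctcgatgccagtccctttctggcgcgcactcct
Mcl1: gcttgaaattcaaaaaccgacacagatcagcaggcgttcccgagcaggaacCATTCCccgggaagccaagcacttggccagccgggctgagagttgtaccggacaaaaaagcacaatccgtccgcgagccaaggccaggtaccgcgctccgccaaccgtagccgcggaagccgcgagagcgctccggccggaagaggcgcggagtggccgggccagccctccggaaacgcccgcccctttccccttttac
The TEAD letters are in 1 of the 3 Bcl2l1 windows, the one shown, and not in the other 2. They start 108 bases before that Bcl2l1 start and 199 bases before the Mcl1 start, and are not in the Bcl2 window. They were found in 4153 of 32851 windows of the same length, or 12.6%, and in no window of the other 6 members. The core of the hypoxia response element, ACGTG or CACGT, was in 16.6% of windows, in the Bax window, in 1 of 3 Bbc3 windows and in no window of the other members. A match is a description of letters and shows no binding.

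Bcl2 (ENSMUSG00000057329.7, chr1:106538178-106714274 in GRCm38, minus strand), the founding survival gene of the family, was counted 858 times in the control and 708 times in the knockout. Its level was 31.5 and 27.0 CPM in control runs 1 and 2, and 13.3 and 13.3 in knockout runs 1 and 2. The control runs lay well above the knockout runs, with no overlap. Runs of Nf2, at a ratio of 0.932, did not overlap either. The share of all genes without overlap was not counted, so non-overlap is given here as description only. Whole libraries stood at 29.1 CPM (control) and 13.3 CPM (knockout), a ratio of 0.457 (interval 0.413 to 0.506), or 2.19-fold lower. Between the 4 pairs of runs the knockout was 2.02-fold to 2.36-fold lower.

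Bcl2l1 (ENSMUSG00000007659.18, chr2:152780668-152831728, minus strand) gave 712 UMIs in the control and 2285 in the knockout. The values were 23.9 and 24.5 CPM in the control runs and 53.9 and 37.0 in the knockout runs. The control runs were nearly alike, both knockout runs lay above them, and the knockout runs differed from each other: run 2 was at 0.687 of run 1. The library levels of 24.2 and 43.0 CPM gave a ratio of 1.78 (interval 1.63 to 1.94), which was 1.53 without knockout run 1 and 2.23 without knockout run 2. The 3′ tags do not separate the long and short splice forms of Bcl2l1, which are known to act in opposite ways.

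Mcl1 (ENSMUSG00000038612.16, chr3:95658788-95663176, plus strand), which encodes a short-lived survival protein, had 8870 and 18781 UMIs. Its level was 317 and 287 CPM in the control runs and 339 and 361 in the knockout runs. The runs did not overlap, yet the library ratio was only 1.17 (interval 1.14 to 1.20), below the size that counts as a call. Run 2 over run 1 was 0.906 in the control and 1.06 in the knockout. Between the runs of 1 library no member was called, beside 0.717% of genes in the control and 1.16% in the knockout. Bbc3 and Bid in each library, and Bcl2 in the knockout, were under the level and could not be called. Bcl2l1 in the knockout, at 0.687 (0.632 to 0.747), was close to the size of a call. With so few genes called, the absence of calls among the members does not show that runs were alike.

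**Figure D1:**
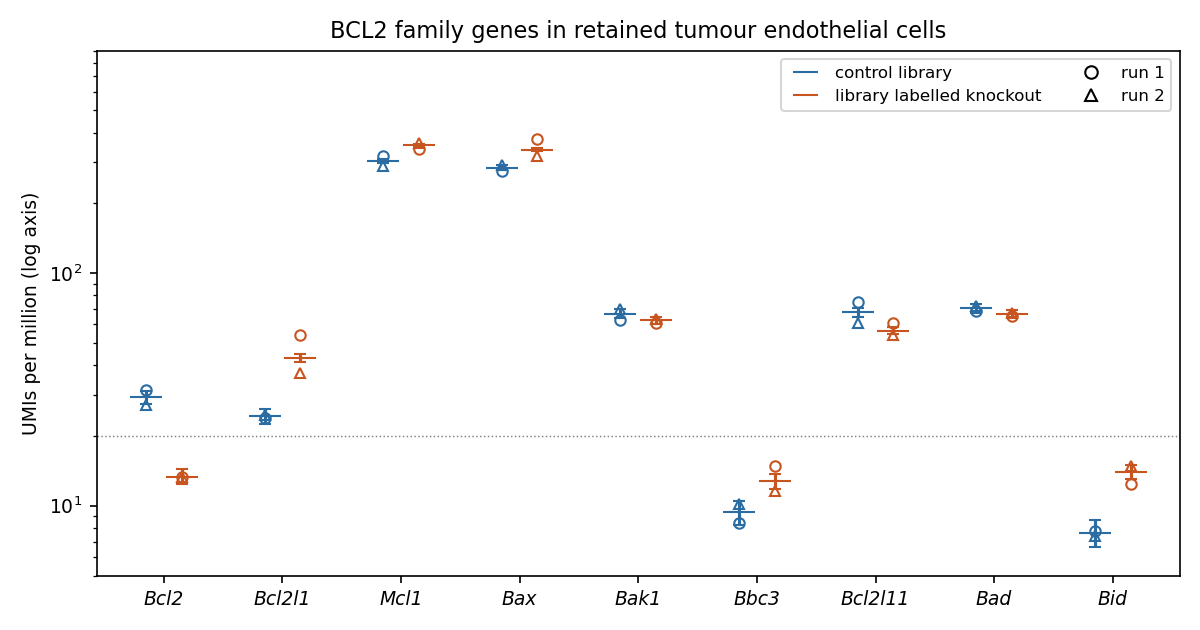
Level of each BCL2 family gene in retained cells, in CPM on a log axis. Horizontal bars with 95% counting intervals are whole libraries (blue control, orange knockout), circles and triangles are runs 1 and 2, and the dotted line is the 20 CPM level. Bcl2 runs are lower and Bcl2l1 runs higher in the knockout. Over the runs Mcl1 is at 287 to 361 CPM and Bax at 275 to 376 CPM, each higher in both knockout runs.

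The balance of the survival genes does not depend on how a library is scaled, because each is set against the others within the same cells. Of the UMIs of the 3 genes together, 10440 in the control and 21774 in the knockout, Mcl1 took 84.96% (84.26 to 85.64, exact binomial interval) and 86.25% (85.79 to 86.71). Bcl2 took 8.22% (7.70 to 8.76) of the control UMIs and 3.25% (3.02 to 3.50) of the knockout UMIs. Bcl2l1 took 6.82% (6.34 to 7.32) and 10.5% (10.1 to 10.9). Bcl2 was thus the second most counted of the 3 in the control and the least counted in the knockout.

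For each Bcl2 UMI there were 0.830 Bcl2l1 UMIs (interval 0.750 to 0.918) in the control and 3.23 (2.97 to 3.52) in the knockout. The run values were 0.759 and 0.907 in the control, and 4.05 and 2.78 in the knockout. The libraries did not overlap in this ratio, although the knockout runs stood apart from each other. The knockout ratio over the control ratio was 3.89 (interval 3.41 to 4.44), and 3.06 to 5.34 over the 4 pairs of runs. Within a library, run 2 over run 1 gave 1.20 (0.975 to 1.47) in the control and 0.685 (0.573 to 0.819) in the knockout. With the same cluster weights in both libraries the value was 2.52.

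Mcl1 against Bcl2 and Bcl2l1 together showed no comparable shift. There were 5.65 Mcl1 UMIs per UMI of the other pair in the control and 6.27 in the knockout, a ratio of ratios of 1.11 (1.04 to 1.19). The 4 pairs of runs spanned 1, from 0.882 to 1.29. The knockout runs alone differed by 1.42 (1.31 to 1.54), more than the libraries did.

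**Figure D2:**
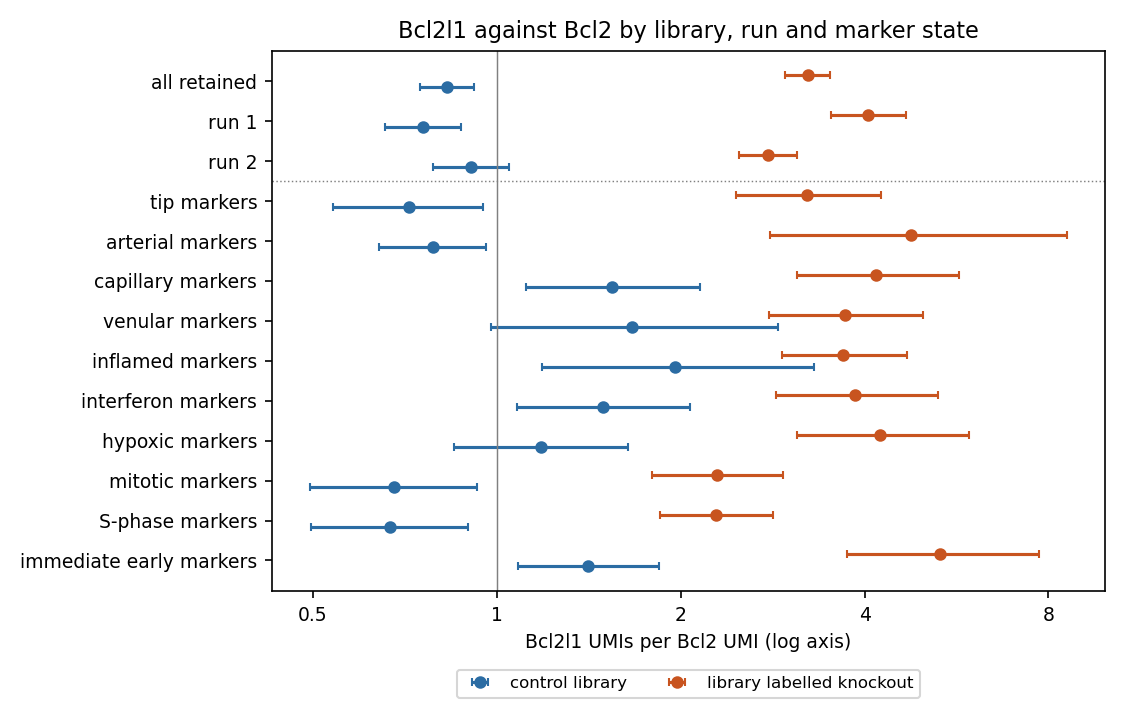
Bcl2l1 UMIs per Bcl2 UMI on a log axis, for all retained cells, for each run and for cells high in the markers of 10 endothelial states, with 95% counting intervals (blue control, orange knockout). The control values lie between 0.669 and 1.96, and all knockout values lie between 2.28 and 5.32.

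The effector genes were near the survival genes in summed level and differed little between libraries. Bax (ENSMUSG00000003873.11, chr7:45461697-45466898, minus strand), whose product forms pores in the outer mitochondrial membrane, stood at 275 and 291 CPM in the control runs and at 376 and 318 in the knockout runs. The knockout runs were both higher, and the ratio of 1.20 (1.16 to 1.23) was below the size of a call. Bak1 (ENSMUSG00000057789.14, chr17:27019810-27029009, minus strand), the second pore-forming effector, had 62.8 and 70.3 CPM in the control runs and 60.9 and 63.6 in the knockout runs. Its runs overlapped and its ratio was 0.940 (0.888 to 0.994).

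Among the 4 BH3-only genes, the 2 well-counted ones were slightly lower in the knockout and the 2 sparse ones were higher, and none was called. Bcl2l11 (ENSMUSG00000027381.16, chr2:128126038-128162547, plus strand), which encodes BIM, had 74.9 and 60.9 CPM in the control runs and 60.9 and 53.9 in the knockout runs. The lower control run and the higher knockout run were level, and the ratio was 0.833 (0.787 to 0.882). Bad (ENSMUSG00000024959.14, chr19:6941861-6951899, plus strand), which encodes a partner of BCL2 and BCL-XL, had 68.8 and 72.2 CPM against 65.3 and 67.5, a ratio of 0.946 (0.896 to 0.999). Its runs lay close together without overlap.

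Bbc3 and Bid were under the 20 CPM level. Bbc3 (ENSMUSG00000002083.13, chr7:16308393-16318205, plus strand), the p53-inducible gene for PUMA, had 8.43 and 10.2 CPM in the control runs and 14.8 and 11.6 in the knockout runs, from 275 and 675 UMIs. The ratio was 1.36 (1.18 to 1.57). Bid (ENSMUSG00000004446.12, chr6:120891930-120916853, minus strand), which links death receptors to mitochondria once caspase-8 has cut its product, had 7.80 and 7.44 CPM against 12.4 and 14.8, from 224 and 741 UMIs. Its ratio of 1.83 (1.58 to 2.14) was as large as that of Bcl2l1, but at these counts the gene was not read as a call. With a level of 5 CPM in place of 20, Bid was called higher.

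Summed by role, the survival genes had 355 CPM in the control and 410 in the knockout, the effectors 350 and 401, and the BH3-only genes 155 and 150. Survival UMIs over the UMIs of the 6 pro-death genes came to 0.702 in the control and 0.744 in the knockout. The runs gave 0.748 and 0.661 in the control, and 0.689 and 0.777 in the knockout. The runs of the libraries overlapped, so no difference in this sum was larger than the spread between runs. These sums count tags and do not weigh how strongly each protein acts.

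Some members lie over other genes. Bcl2 overlaps the antisense gene D630008O14Rik, Bid overlaps Bcl2l13, Bad overlaps Gpr137 and Bak1 overlaps Ggnbp1, each on the opposite strand and each with its own entry in the tables. Whether the counting used strand is not given in the sources used here, so tags of such pairs may have been mixed. Bax also overlaps Gm45808 on its own strand, Bid Gm44260, and Bcl2 Mir3473f and Gm37053, none of which has an entry.

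Endothelial states were read from marker genes. A cell was placed in a state where its mean natural log value over the state's 6 to 10 markers was in the top 10% of all retained cells, so a state is a range of a score and not a cell type. Of the retained cells, 1543 were in no state, 1640 in 1 state and 1198 in several. Cells within 5% of a cut numbered 10 (S-phase, control) to 243 (tip, knockout) per state and library. The states differed in size between libraries: arterial markers were high in 348 control cells and 90 knockout cells, and venular markers in 100 and 338. A state did not always hold the same clusters of cells in both libraries. The cluster with the most cells, control then knockout, was 1 and 10 in arterial, 7 and 10 in capillary, 1 and 9 in inflamed, 8 and 13 in mitotic, and 7 and 10 in immediate early cells, and it was shared in the other 5 states. The part of these clusters in the differences within a state was not tested.

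Within each of the 10 states Bcl2 was lower and Bcl2l1 higher in the knockout than in the control. The Bcl2 ratio ran from 1.14-fold lower in inflamed cells to 2.91-fold lower in tip cells, and 8 of 10 intervals excluded 1. The Bcl2l1 ratio ran from 1.14 in interferon cells to 2.47 in arterial cells, with 9 of 10 intervals excluding 1. Mcl1 was also above 1 in all 10 states, at 1.05 to 1.44, and was called in none. Bcl2l1 was called higher in 8 states. There the share of all genes called higher was 4.59% in tip, 10.9% in arterial, 5.88% in capillary, 3.55% in inflamed, 4.18% in hypoxic, 3.08% in mitotic, 3.24% in S-phase and 4.63% in immediate early cells. Bcl2 was called lower in 4 states, where 6.47% (tip), 7.69% (arterial), 5.38% (mitotic) and 5.34% (S-phase) of genes were. In interferon (2.26-fold), immediate early (2.28-fold), hypoxic (2.20-fold) and capillary cells (1.77-fold) Bcl2 was also lower with intervals that excluded 1, and was not called because its mean level was under 20 CPM. In 2 states no member was called, beside 8.85% of genes in venular and 9.64% in interferon cells in either direction. Of the other members, Bax was called higher in capillary cells (1.58), and Bcl2l11 lower in arterial and S-phase cells (0.515 and 0.655) and higher in immediate early cells (1.52). The sparse genes Bbc3 and Bid, under the level in every state, were above 1 in 10 of 10 and 9 of 10 states. Their ratios were 1.03 to 3.35 and 0.914 to 2.87. The share of all genes with the same direction in every state was not counted. The states share cells, so they are not independent counts.

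In tip cells, the sprouting front cells of a vessel, Bcl2 had 35.8 CPM in the control (148 cells, 124 UMIs) and 12.3 in the knockout (290 cells, 72 UMIs), a ratio of 0.344 (0.254 to 0.463). In arterial cells Bcl2l1 had 27.1 CPM in the control (180 UMIs) and 66.9 in the knockout (81 UMIs), a ratio of 2.47 (1.87 to 3.23). The main cluster of these cells differed: 135 of 348 control cells were in cluster 1, where control Bcl2l1 was at 23.3 CPM, and 24 of 90 knockout cells in cluster 10, where knockout Bcl2l1 was at 58.9. Inflamed cells, high in chemokine and adhesion genes, had the smallest difference in Bcl2, 13.4 CPM from 25 control UMIs against 11.8 from 94 knockout UMIs. In that state the interval of the ratio, 0.561 to 1.43, included 1.

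The Bcl2l1 to Bcl2 ratio separated the libraries in every state. In the control it was lowest in S-phase cells, at 0.669 (0.497 to 0.898), and in mitotic cells, at 0.680 (0.494 to 0.930), followed by tip cells at 0.718 and arterial cells at 0.786. It was above 1 in hypoxic (1.18), immediate early (1.41), interferon (1.49), capillary (1.55), venular (1.67) and inflamed cells (1.96, 1.19 to 3.31). The hypoxic (0.852 to 1.64) and venular (0.980 to 2.89) intervals included 1. The intervals of neighbours in this order overlapped. In the knockout the 2 cycling states were again the lowest, at 2.28 (1.85 to 2.84) and 2.29 (1.80 to 2.94), and immediate early cells the highest, at 5.32 (3.74 to 7.73). The knockout ratio over the control ratio was above 1 in 10 of 10 states with intervals that excluded 1, from 1.88 (1.05 to 3.29) in inflamed cells to 6.06 (3.40 to 11.3) in arterial cells. In cells thinned to 2000 UMIs, 4 states kept such an interval, and in cells with at least 5000 UMIs 9 did.

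Mcl1 was the most counted of the 3 survival genes in every state. Its share of the 3 genes' UMIs was 82.9% to 89.7% across control states and 83.8% to 89.5% across knockout states. The highest Mcl1 level was 482 CPM in knockout immediate early cells, a state of rapid-response genes that handling of tissue can also raise, and the lowest 256 CPM in control S-phase cells. In control immediate early cells Mcl1 was at 352 CPM. The summed immediate early markers were 4990 CPM in the control library and 3909 in the knockout, and their part in the Mcl1 values was not tested.

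Set against the other retained cells of the same library, 4 contrasts of the survival genes were called of the 50 that reached the 20 CPM level, and 16 of 130 (12.3%) over all 9 members. The 10 knockout contrasts of Bcl2 and all 40 of Bbc3 and Bid were under that level and could not be called. Among all genes the share called in either direction, control then knockout, was 17.2% and 16.9% in tip, 5.37% and 18.2% in arterial, 8.0% and 8.3% in capillary, and 18.1% and 13.3% in venular cells. It was 5.81% and 2.27% in inflamed, 8.74% and 4.82% in interferon, and 24.0% and 31.0% in hypoxic cells. In mitotic, S-phase and immediate early cells it was 14.0% and 17.3%, 17.1% and 20.5%, and 8.66% and 9.23%. These shares are the background for the members' calls. Bcl2 was lower in control venular cells, 16.1 against 29.8 CPM in the others (ratio 0.539, 0.343 to 0.807), beside 7.83% of genes lower there. It was also lower in control inflamed cells, 13.4 against 30.2 CPM (0.443, 0.285 to 0.659), beside 1.8%. Bcl2l1 was higher in knockout arterial cells, 66.9 against 42.5 CPM (1.57, 1.246 to 1.97), beside 13.1% of genes higher, and in control immediate early cells, 34.3 against 22.5 CPM (1.52, 1.26 to 1.83), beside 5.2%. Mcl1 was called in 0 of 20 contrasts, at ratios of 0.795 to 1.40. None of the 4 calls remained in cells thinned to 2000 UMIs, where 3 others were made: Bcl2l1 higher in control inflamed (2.42) and knockout immediate early cells (1.77), and Mcl1 higher in knockout immediate early cells (1.60). With states taken as the top 20%, of the 4 only the inflamed Bcl2 call remained.

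Bcl2l11 had the most calls by state of the members at the level, 9 of 20 contrasts. In tip cells it had 114.5 CPM against 61.4 in the other control cells, a ratio of 1.86 (1.67 to 2.08), and 90.0 against 52.2 in the knockout, 1.72 (1.57 to 1.89). These ran beside 7.26% and 7.7% of genes called higher. In venular cells it was low, 22.8 against 70.1 CPM in the control (0.325, 0.224 to 0.456) and 26.4 against 60.01 in the knockout (0.439, 0.371 to 0.518), beside 7.83% and 5.66% of genes called lower. Tip and venular cells thus marked the ends of the Bcl2l11 range over the states in each library. Tip cells shared their main cluster, 3, with hypoxic cells. It held 79 of 148 control and 154 of 290 knockout tip cells, and 130 of 173 and 229 of 265 hypoxic cells. In that cluster Bcl2l11 was at 94.8 CPM in the control and 93.8 in the knockout. S-phase cells were lower in both libraries, at 0.661 and 0.506 of the other cells, beside 5.1% and 7.15%.

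Other Bcl2l11 calls were made in the knockout alone: higher in hypoxic cells (87.2 against 53.1 CPM, 1.64) and immediate early cells (82.2 against 54.5 CPM, 1.51), and lower in mitotic cells (37.2 against 58.7 CPM, 0.634). The shares of all genes called in those directions were 10.2%, 6.32% and 5.23%. In the control the hypoxic ratio was 1.48, the mitotic 0.697 and the immediate early 0.773, and the difference between libraries in these ratios was not tested. Of the 16 calls over all members and states, 6 held under the 3 other ways of defining states that were tried. All 6 were of Bcl2l11: tip in each library, and venular, hypoxic, mitotic and S-phase in the knockout. The share of all genes whose state calls held in this way was not counted, so this is a description only.

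Of the remaining members, Bak1 was higher in control interferon cells (96.0 against 63.4 CPM, 1.51) and lower in control hypoxic cells (43.2 against 69.8 CPM, 0.618). Bad was lower in knockout hypoxic cells (40.5 against 69.5 CPM, 0.583). These 3 calls ran beside 5.14%, 14.9% and 20.8% of genes called in the same direction. Bax was called in no state contrast, with ratios of 0.740 to 1.12. Bid was lowest in venular cells in each library, at 2.01 CPM from 3 UMIs in the control and 5.76 from 33 UMIs in the knockout, under the level for a call. Its ratios to the other cells ran from 0.254 to 1.61, a span wider than the 0.325 to 1.86 of Bcl2l11.

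**Figure D3:**
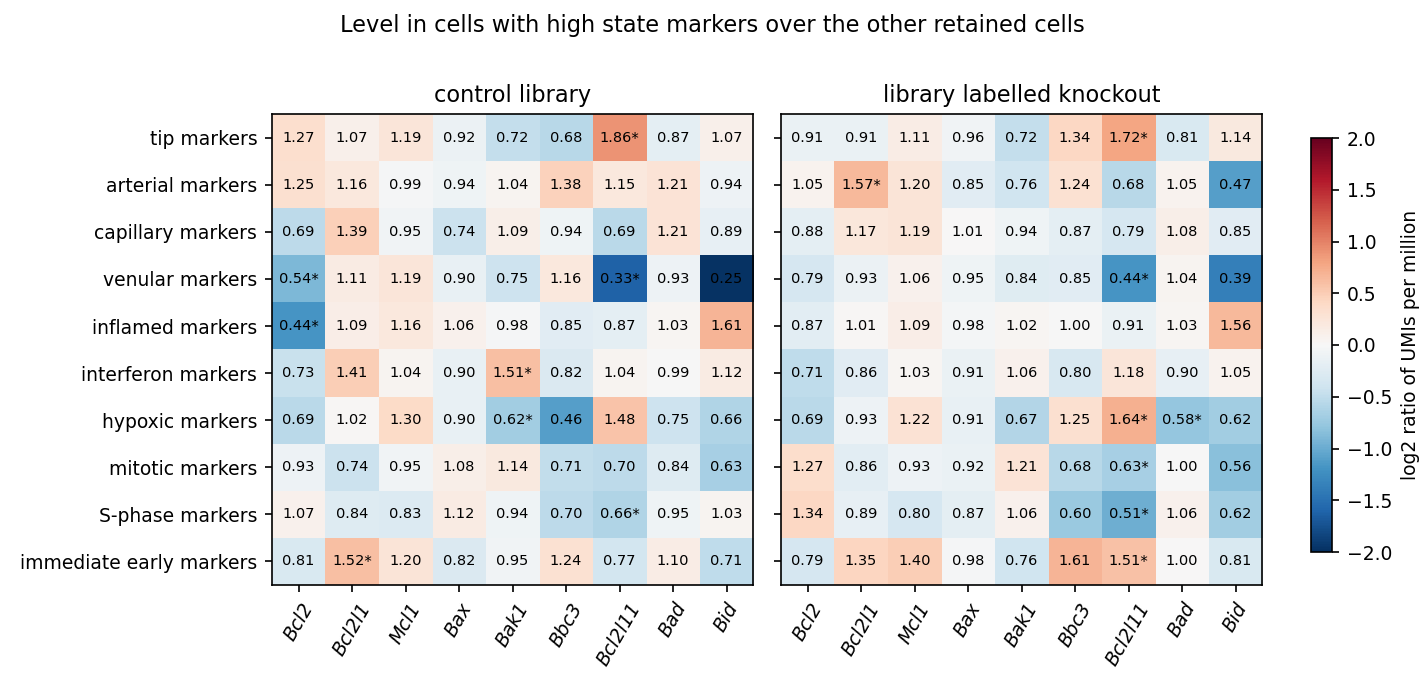
Ratio of each gene's level in cells high in a state's markers to its level in the other retained cells of the same library, coloured on a log2 scale, with the ratio printed in each cell and an asterisk where it was called. Bcl2l11 holds 9 of the 16 asterisks, high in tip cells and low in venular cells of each library.

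The retained cells fell into 10 clusters, and 15 pairs of cluster and library held at least 50 cells. Cluster 1, led by Gal, Kcnj8 and Piezo2, held 536 control and 12 knockout cells, and cluster 9, led by Cldn4, Tgfb2 and F2rl1, held 32 and 794. These 2 clusters were thus nearly 1 library each. Bcl2 was highest in control cluster 1, at 36.6 CPM (33.3 to 40.1), and lowest in knockout cluster 12, at 6.91 CPM from 10 UMIs. Bcl2l1 was highest in knockout cluster 10, led by Sult1a1 and Tagln, at 58.9 CPM (51.7 to 66.9). Without clusters 1 and 9 Bcl2 was still at 0.532 of control (0.463 to 0.610), where its mean level fell under 20 CPM.

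Markers moved with these clusters. Pericyte or smooth muscle markers, among them Kcnj8, summed to 174 CPM in the control and 62.7 in the knockout, and epithelial or tumour markers, among them Cldn4, to 7.54 and 33.1. All 10 pericyte markers were detected in each library, and 5 and 6 of 6 epithelial ones. Their part in the Bcl2 and Bcl2l1 values was not tested.

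In the 5 clusters with at least 50 cells of each library, Bcl2 was lower in the knockout in 5 of 5, by 1.42-fold to 2.26-fold. Bcl2l1 was higher in 5 of 5, at ratios of 1.11 to 2.16. In cluster 4 both intervals included 1, at 0.473 to 1.08 for Bcl2 and 0.851 to 1.47 for Bcl2l1. In cluster 8 the median depth was 2683.5 UMIs in the control and 16727.5 in the knockout, and its part was not tested. The sparse genes Bbc3 and Bid were also above 1 in 5 of 5. The share of all genes with such a pattern was not counted. The Bcl2l1 to Bcl2 ratio was 0.548 to 2.06 over control clusters and 2.01 to 6.10 over knockout clusters, so the ranges overlapped at their edges. Mcl1 ran from 254 to 433 CPM over the 15 groups, a span of 1.71-fold, against 5.29-fold for Bcl2, 3.35-fold for Bcl2l1 and 5.71-fold for Bcl2l11. Bax spanned 1.55-fold, the narrowest of the 9, and Bad 1.89-fold.

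**Figure D4:**
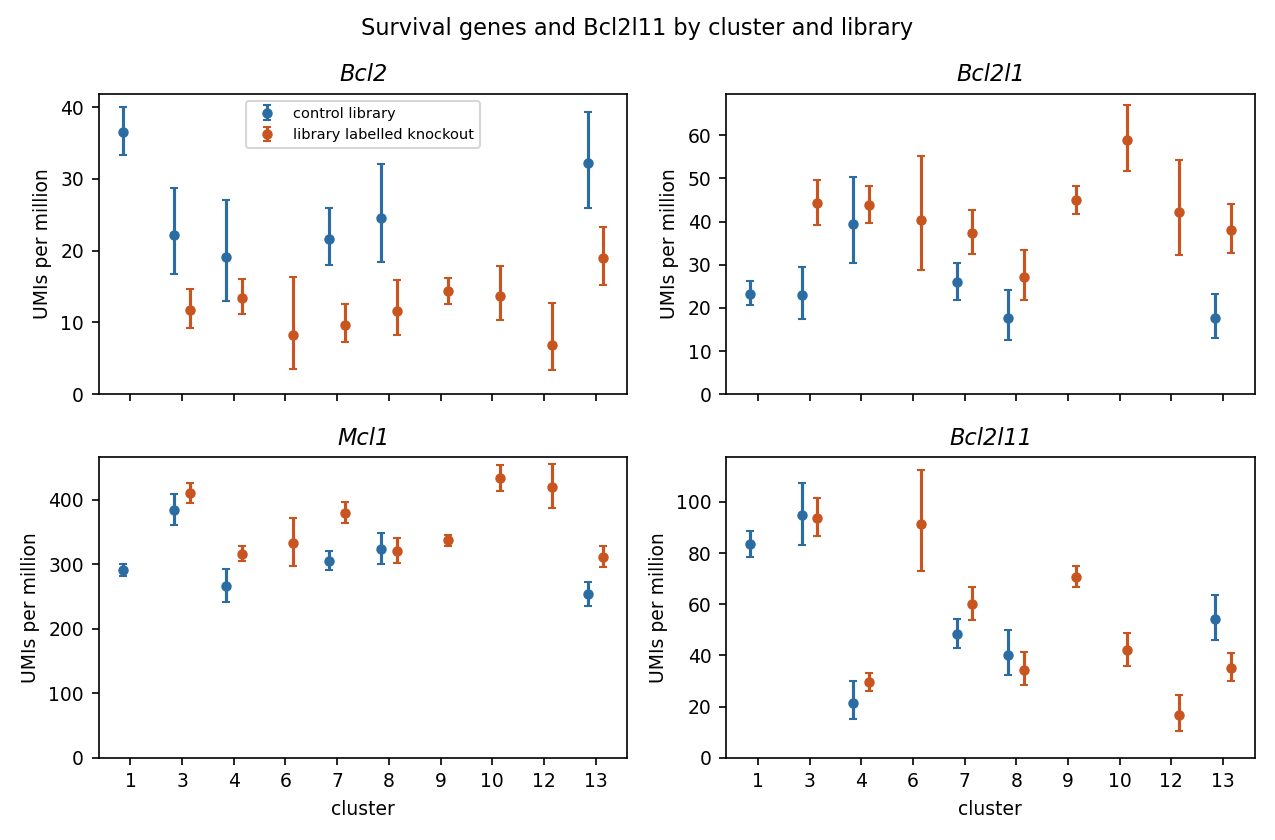
Level of Bcl2, Bcl2l1, Mcl1 and Bcl2l11 in each retained cluster with at least 50 cells of a library, in CPM with 95% counting intervals (blue control, orange knockout). In the 5 clusters with both libraries the Bcl2 point of the knockout is always below that of the control, and the Bcl2l1 point is above it.

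Over the same 15 groups the genes most like Bcl2 by Pearson correlation of log2(CPM + 1) were Kif5b (0.92), Lamc1 (0.91), Abl1 (0.90), Heatr5a (0.90) and Ift122 (0.89). Those most like Bcl2l1 were Amotl2 (0.93), Rflnb (0.90), Rasa4 (0.88), Coq10b (0.86) and Mtmr10 (0.84). Mcl1 went most closely with Sbds (0.90), Gadd45b (0.89), Pnrc1 (0.86), Ppp1r15a (0.86) and Exoc6 (0.84). Bcl2 and Bcl2l1 ran against each other at -0.70, Bcl2 and Mcl1 at -0.64, and Bcl2l1 and Mcl1 together at 0.53. The groups share libraries, and a difference between libraries alone gives such values.

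The rest of the pathway was followed through 82 other genes in 7 lists, of which 50 reached the level and 5 were called, 4 higher and 1 lower, beside 8.04% of all genes (2.78% higher and 5.26% lower). Among 16 further BCL2 relatives 4 reached the level and none was called, with a median log2 ratio of 0.19. These were Bok (80.6 and 88.7 CPM), Bik (41.8 and 49.6), Bnip3 (96.2 and 114) and Bnip3l (235 and 219). Pmaip1, the p53-inducible gene for NOXA, was under the level at 10.1 and 17.1 CPM, with a ratio of 1.69 (1.48 to 1.93). Bmf, another BH3-only gene, was at 4.82 and 2.43 CPM from 142 and 129 UMIs.

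Downstream of the mitochondria, 8 of 14 caspase and apoptosome genes reached the level and 1 was called: the executioner caspase gene Casp6 was lower, 30.2 against 18.0 CPM, at a ratio of 0.596 (0.543 to 0.654). The median log2 ratio of the list was -0.19. All 6 caspase inhibitors reached the level and none was called, with a median of 0.06.

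Of the 14 p53 pathway genes 7 reached the level and 2 were called higher, beside 2.78% of all genes, the cyclin gene Ccng1 (21.6 and 34.9 CPM, 1.62) and the nuclease gene Aen (20.1 and 32.2 CPM, 1.60), with a list median of 0.21. Of 9 death receptor genes 5 reached the level, with a median of -0.03, and the TWEAK receptor gene Tnfrsf12a was called higher (76.0 and 120.5 CPM, 1.59). Of 13 regulators of BCL2 family proteins 12 reached the level, with a median of -0.09, and 1 was called, Pim3 (111 and 182 CPM, 1.64), a kinase whose family is known to phosphorylate BAD. None of 8 mitochondrial fission, fusion and channel genes at the level was called, with a median of -0.05. Each of the 4 genes called higher fell under 1.5 in at least 1 other setting: Aen was 1.46 without control run 1, Pim3 1.43 with the same cluster weights, Ccng1 1.45 and Tnfrsf12a 1.39 without the clusters led by a marker of another cell type.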

How the data were processed

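Per the labels' protocols, CD31-sorted cells were processed with the 10x Genomics 3′ kit (v3.1). Cell Ranger 3.0.0, Seurat 3.1.1 and genome build mm10 are named in the submitters' processing notes. The deposited values are natural log values, which were found to be ln(1 + 10000 × UMIs / cell total); all nonzero values came out as whole UMI counts within 0.01. Counts had been assumed when the design was written, and the recovered counts were used.

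The cell filter asked for 500 genes, 1000 UMIs and a mitochondrial share of 10% or less, which 2572 control and 3312 knockout cells passed. The doublet caller marked 0% of cells and was not relied on; the 5% with the highest scores in each library were removed. scanpy 1.11.5 gave 14 clusters (2000 variable genes, 30 components, resolution 0.8). Of these, 1 with macrophage markers and 3 shallow ones were left out. UMIs were summed per library, run, state or cluster. Ratios carry exact conditional intervals, levels exact Poisson intervals and shares exact binomial intervals, all at 95% and for counting error only. On simulated counts with 200 changed genes the size rule was tested. The simulation drew counting error only and changed only genes counted more than Bcl2 or Bcl2l1. It therefore does not speak to the calls of these genes or to differences between libraries. Named are the members, every listed pathway gene past the size rule and the 5 genes most like each survival gene. The members and lists were chosen with earlier results of these data known. Alternatives covered runs, clusters, doublets, depth, weights, scaling and thresholds.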

Additional observations from a re-analysis of the deposited data

How the results depend on the processing

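No paired analysis was possible because each group has 1 library and the runs carry no stated pairing. Over 18 other settings Bcl2 stayed 1.70-fold to 2.40-fold lower, Bcl2l1 at 1.48 to 2.23, Mcl1 at 1.11 to 1.23, Bax at 1.12 to 1.33, Bak1 at 0.891 to 1.001, Bbc3 at 1.04 to 1.58, Bcl2l11 at 0.752 to 0.955, Bad at 0.895 to 1.07 and Bid at 1.30 to 2.54. Over 15 settings the Bcl2l1 to Bcl2 ratio of ratios stayed at 2.52 to 4.88, and that of Mcl1 to the other pair at 0.894 to 1.27. A setting that changed only a threshold for calls could not move any of these ratios. With the same cluster weights in both libraries Bcl2 was at 0.588, with a mean level under 20 CPM, and Bcl2l1 at 1.48, under the size of a call. Without clusters 1 and 9, a setting chosen after seeing the data, Bcl2 was at 0.532 and again under that level. A required ratio of 2 ended the Bcl2l1 call (1.78), and a required level of 50 CPM ended both calls by construction (0.457 and 1.78). The count of genes called, 469, was 1156 at the looser ratio threshold, 155 at a ratio of 2, 870 at 5 CPM and 248 at 50 CPM. Leaving out 1 run at a time gave 421 to 573. State contrasts called for the members, 16, were 8 with the top 20% of a score, 13 after thinning, of which 7 were among the 16, and 14 in cells with at least 5000 UMIs. After thinning, Bak1 turned to 0.566 in knockout inflamed cells and 0.625 in knockout interferon cells, from values near 1; the cause was not tested. Sparse counts limit Bbc3, Bid and the Bcl2 values of small states.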

Other observations

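The cells left out of the comparison, 815 control and 393 knockout, gave survival gene levels at lower precision. Their make-up also differed between libraries. The shallow cluster 2, led by S100a9 and S100a8, held 535 control and 12 knockout cells. The shallow clusters 5 and 11 held 222 and 6 control cells, and 289 and 90 knockout cells. Bcl2 was at 23.2 CPM (17.3 to 30.4, 52 UMIs) in the control and 10.9 (6.32 to 17.4, 17 UMIs) in the knockout. Bcl2l1 was at 21.0 CPM (47 UMIs) and 39.6 (62 UMIs), and Mcl1 at 290 and 253. Bcl2a1b, a survival relative known from leukocytes, had 7.14 CPM in the left-out control cells, from 16 UMIs, and 0.679 in the retained ones. In the knockout the values were 3.83 CPM from 6 UMIs and 0.433.

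Retained cells were also split by depth. In knockout cells with under 5000 UMIs Bcl2 stood at 28.5 CPM, but from 12 UMIs in 133 cells, against 11.9 to 15.1 in the 3 deeper ranges. Control cells had 24.6 to 30.04 CPM over the 4 ranges. The lowest of these, 24.6 CPM from 21 UMIs in 370 cells, was the range under 5000 UMIs. In that range Bcl2 was thus not lower in the knockout, at sparse counts in both libraries. The Bcl2l1 to Bcl2 ratio was 0.719 to 1.05 over control ranges and 2.25 to 3.57 over knockout ranges. Hrk and Bcl2l14 gave 0 UMIs in the retained cells of each library.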
